A study of Mus musculus with 11 samples.

Results

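The unfolded protein response and the integrated stress response were followed through 10 genes, Hspa5, Hsp90b1, Ddit3, Atf3, Atf4, Xbp1, Trib3, Chac1, Dnajb9 and Herpud1, in mouse retina. They were chosen by name from the 37991 genes of the count table. All 10 were matched by Ensembl identifier, and all 10 were among the 17099 genes that passed the filter on low counts. Each of the 11 libraries was made from 1 animal's retina, taken from the right eye on postnatal day 24. The study asked whether inhibiting the histone demethylase LSD1 alters rod photoreceptor loss in rd10 mice, a model of retinitis pigmentosa. Of the 4 groups, 3 mice were rd10 (B6.CXB1-Pde6brd10/Jrd10, mutant for the rod phosphodiesterase gene Pde6b) given the LSD1 inhibitor GSK2879552, called GSK here, and 3 were rd10 given saline. The other groups were 3 wild-type C57Bl/6J mice given GSK and 2 wild-type mice given saline. All injections were intraperitoneal and daily from day 9 to day 24, with GSK at 4.2 mg/kg. Any sequence difference between the B6.CXB1 and C57Bl/6J backgrounds other than Pde6b moves with genotype. A whole retina was sequenced, so fewer cells of a type and less RNA per cell cannot be told apart.

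When unfolded proteins collect in the endoplasmic reticulum (ER), the sensors PERK, ATF6 and IRE1 start the unfolded protein response. ATF6 and the spliced form of XBP1 made by IRE1 raise genes for ER chaperones and for the removal of misfolded proteins. PERK is also a kinase of the integrated stress response, in which several kinases phosphorylate the translation factor eIF2, and ATF4 protein is then made preferentially. ATF4 drives genes such as Ddit3, Trib3, Chac1 and Atf3. Misfolded rhodopsin is a well-studied source of ER stress in rods. Much of this control acts on translation, on phosphorylation and on Xbp1 splicing, none of which a count per gene can show.

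The promoters of 5 members are shown because they hold matches to elements known from these branches. Each line gives the 250 bases upstream of the RefSeq start site on build GRCm38.p6, read 5′ to 3′ on the strand of the gene. Capitals mark every match to a searched motif.
Chac1, chr2:119350992-119351241, plus strand: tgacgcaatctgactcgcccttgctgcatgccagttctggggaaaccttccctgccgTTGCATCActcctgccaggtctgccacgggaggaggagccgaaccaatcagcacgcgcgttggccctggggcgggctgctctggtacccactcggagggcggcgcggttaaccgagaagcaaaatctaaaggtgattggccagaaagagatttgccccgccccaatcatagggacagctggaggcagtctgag
Atf3, chr1:191183334-191183583, minus strand: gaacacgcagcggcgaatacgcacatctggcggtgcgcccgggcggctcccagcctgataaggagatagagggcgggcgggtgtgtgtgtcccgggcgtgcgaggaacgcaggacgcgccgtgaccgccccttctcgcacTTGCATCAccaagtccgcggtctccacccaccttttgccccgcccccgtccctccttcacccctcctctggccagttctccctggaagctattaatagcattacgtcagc
Herpud1, chr8:94386179-94386428, plus strand: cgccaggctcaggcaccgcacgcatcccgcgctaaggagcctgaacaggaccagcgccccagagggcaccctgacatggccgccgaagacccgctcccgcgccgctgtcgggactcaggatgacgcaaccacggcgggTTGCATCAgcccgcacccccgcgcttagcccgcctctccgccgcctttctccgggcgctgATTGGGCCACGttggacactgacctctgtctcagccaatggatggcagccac
Hspa5, chr2:34771840-34772089, plus strand: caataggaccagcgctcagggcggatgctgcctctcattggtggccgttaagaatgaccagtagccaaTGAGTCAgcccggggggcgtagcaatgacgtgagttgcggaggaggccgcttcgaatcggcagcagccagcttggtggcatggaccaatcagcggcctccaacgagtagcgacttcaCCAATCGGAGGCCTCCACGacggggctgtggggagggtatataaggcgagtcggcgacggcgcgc
Hsp90b1, chr10:86705445-86705694, minus strand: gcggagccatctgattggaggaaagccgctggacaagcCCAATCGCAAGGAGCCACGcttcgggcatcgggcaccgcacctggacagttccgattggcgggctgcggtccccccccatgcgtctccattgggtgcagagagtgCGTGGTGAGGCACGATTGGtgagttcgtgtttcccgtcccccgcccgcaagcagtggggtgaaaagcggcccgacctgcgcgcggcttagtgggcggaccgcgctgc
The motifs, searched on both strands, were the C/EBP-ATF response element core (CARE) TGATGNAA, the ER stress response element (ERSE) CCAAT and CCACG with 9 bases of any kind between, ERSE-II ATTGG and CCACG with 1 base between, the cyclic AMP response element TGACGTCA, the unfolded protein response element TGACGTGG and the AP-1 element TGANTCA. The CARE lies in the windows of Chac1, Atf3 and Herpud1, against 3.45% of 32817 promoter windows. An ERSE lies in those of Hspa5, where it is at positions -65 to -47 from the start site, and Hsp90b1, which has 2, against 0.113% of windows. Herpud1 also holds an ERSE-II, found in 0.0305% of windows. The AP-1 element is in the windows of Hspa5 and Ddit3, against 6.75% of windows. No member matched the other motifs, which lie in 1.55% (cyclic AMP) and 0.564% (unfolded protein response) of windows, and Atf4, Trib3, Xbp1 and Dnajb9 matched none. A match is a description of letters and not evidence of binding.

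Libraries held 19657030 to 28053367 counts. Expression is given in CPM, a gene's count relative to its library total after TMM scaling (edgeR's correction for library composition), and changes as log2 fold changes ± standard error (SE) from edgeR's quasi-likelihood test. A gene is said to have risen or fallen where its p, adjusted over all 17099 genes by Benjamini-Hochberg, was under 0.05. Kdm1a, the gene of LSD1, was at 97.4 ± 5.69 CPM in rd10 GSK, 86.2 ± 2.835 in rd10 saline, 100.5 ± 4.01 in wild-type GSK and 95.55 ± 0.583 in wild-type saline (mean ± SD). Its level does not check the treatment, which targets the enzyme. Pde6b averaged 1376 ± 383 CPM in rd10 GSK and 362 ± 51.9 in rd10 saline, against 2243 ± 35.45 and 2266 ± 49.8 in wild-type GSK and saline. The 10 rod markers were all detected in all libraries and summed to 25930 to 49810 CPM in rd10 GSK, 8668 to 10580 in rd10 saline, 59580 to 62270 in wild-type GSK and 63670 to 65130 in wild-type saline. In 2 libraries lens transcripts stood apart: the 15 lens markers summed to 7288 CPM in rd10 GSK replicate 2 and 737 CPM in wild-type saline replicate 2, whereas no other library passed 16.1 CPM. Xist, expressed in female cells, was at 784 to 829 CPM in both wild-type saline libraries, while in rd10 GSK it ranged between 0.0771 and 780.5 CPM, so sex was unevenly spread over the groups.

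Per kilobase of merged exon, the members differed widely in level in wild-type saline retina. Atf4 stood at 105.5 ± 3.41 CPM per kilobase, with the ER chaperone genes Hsp90b1 at 96.97 ± 4.50 and Hspa5 at 77.2 ± 9.65. The middle of the range held Herpud1 at 28.4, Xbp1 at 24.02, Ddit3 at 17.97 and Dnajb9 at 15.6 CPM per kilobase. Trib3 at 2.78, Atf3 at 1.88 and Chac1 at 1.35 CPM per kilobase were scarce. Chac1 rested on 43 to 157 reads per library and Trib3 on 75 to 192. Atf3 had 76 to 108 reads in the wild-type libraries, so counting noise weighs most on these genes.

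**Figure D1:**
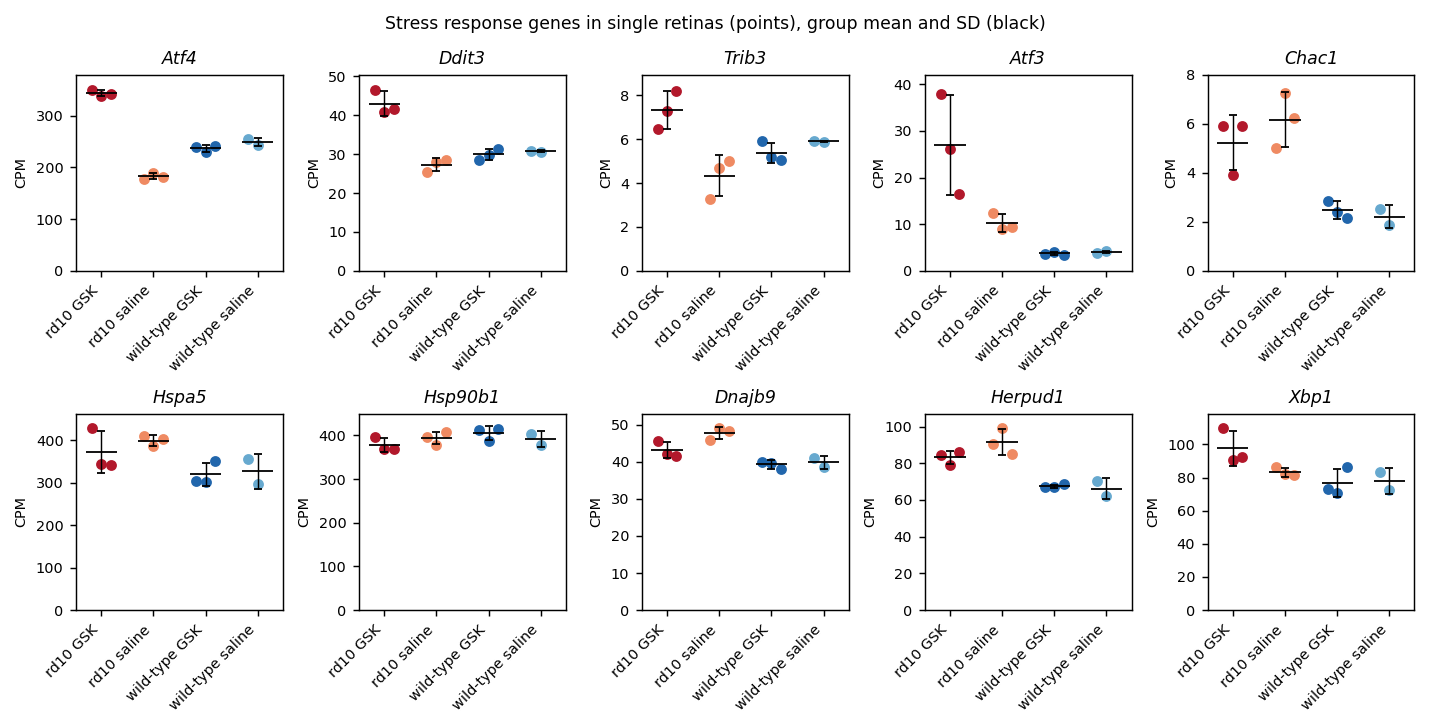
Expression of the 10 genes in CPM (vertical axes, from 0) in each of the 11 retinas (points), with group mean and SD in black, for rd10 GSK, rd10 saline, wild-type GSK and wild-type saline from left to right. In the top row Atf4 is highest in the 3 rd10 GSK libraries at 339 to 349 CPM and lowest in rd10 saline at 177 to 190 CPM, while Hsp90b1 in the bottom row overlaps across all groups.

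In rd10 retinas Atf4, Ddit3, Trib3 and Atf3 were higher with GSK than with saline, and the ER chaperone genes Hspa5 and Hsp90b1 were not called. That is 4 of 10 members, beside 32.9% of all genes called in either direction and 17.6% called higher in the same comparison. The members' median log2 change was 0.08, against 0.01 over all genes tested. Of all calls 53.6% were higher, and 94.4% when libraries were scaled on bipolar, amacrine and ganglion cell markers (inner retina scaling). There, 6 members were called higher and none lower. That scaling takes its markers as constant. Under TMM scaling 9 of 10 bipolar, 4 of 9 amacrine and 7 of 8 ganglion cell markers tested were called lower in rd10 GSK. The share of members called in either direction is near that of all genes and does not set them apart. All 4 calls were higher, but 10 genes are too few to read this as a property of the set. What follows describes the individual genes.

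Atf4, the transcription factor at the centre of the integrated stress response, was at 349, 339 and 342 CPM in rd10 GSK replicates 1, 2 and 3, against 177, 190 and 182 CPM in rd10 saline. The 3 GSK retinas lay close together and far above every saline retina. The log2 rise of 0.91 ± 0.05, or 1.88-fold, had an adjusted p of 1.05e-06 in edgeR, and its unadjusted p ranked 7 of 17099 genes.

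Ddit3, which encodes the pro-apoptotic factor CHOP, was at 46.55, 40.7 and 41.7 CPM in rd10 GSK, against 25.5, 27.9 and 28.5 CPM in rd10 saline. The groups did not overlap, and 42.7% of all genes tested also had no overlap here. Ddit3 rose by 0.66 ± 0.07 (edgeR adjusted p = 6.12e-05). In GENCODE M21 its exons share 68 bases with Mars, a methionyl-tRNA synthetase gene on the opposite strand. Mars was at 101.5, 90.7 and 86.1 CPM in rd10 GSK, against 66.7, 68.5 and 64.9 CPM in rd10 saline, and also rose (0.48 ± 0.06, adjusted p = 0.000158). The strand setting of the counting is not given in the sources used here, and the part of Mars reads in the Ddit3 count was not tested.

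Trib3, a pseudokinase that ATF4 and CHOP induce and that restrains both AKT and ATF4, was at 6.475, 7.29 and 8.20 CPM in rd10 GSK, against 3.275, 4.71 and 5.03 CPM in rd10 saline. All GSK retinas were above all saline retinas, by the narrowest margin of the 4 genes. It rose by 0.75 ± 0.16 (edgeR adjusted p = 0.00408).

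Atf3, a stress-induced transcription factor of the same bZIP family, was at 37.96, 26.2 and 16.5 CPM in rd10 GSK, against 12.4, 8.95 and 9.46 CPM in rd10 saline. The GSK retinas differed widely among themselves, yet the lowest stayed above every saline retina. Atf3 rose by 1.39 ± 0.26, or 2.62-fold (edgeR adjusted p = 0.00285). The rod markers ran the other way within rd10 GSK, summing to 25930, 40950 and 49810 CPM in replicates 1, 2 and 3. The 9 markers of reactive gliosis, the response of Müller glia to damage, summed to 2419, 1565 and 852 CPM in the same 3 retinas, against 2326 to 2504 CPM in rd10 saline. Their part in the level of Atf3 was not tested.

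Chac1, an enzyme that degrades glutathione and a well-known ATF4 target, did not move with those 4 genes. It was at 5.90, 3.92 and 5.90 CPM in rd10 GSK, against 5.02, 7.25 and 6.25 CPM in rd10 saline. The groups overlapped, and the change of -0.23 ± 0.20 was not called (edgeR adjusted p = 0.400, 95% interval -0.67 to 0.20).

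The chaperones showed no called change with GSK in rd10. Hspa5, which encodes the main ER chaperone BiP, was at 429, 345 and 341 CPM in rd10 GSK, against 409, 386 and 403 CPM in rd10 saline. Replicate 1 of rd10 GSK was above all saline retinas and the other 2 below them (-0.10 ± 0.10, edgeR adjusted p = 0.456, 95% interval -0.32 to 0.11). Hsp90b1, the ER member of the HSP90 family, was at 397, 368 and 368 CPM in rd10 GSK and 396, 378 and 408 CPM in rd10 saline, again overlapping (-0.06 ± 0.06, adjusted p = 0.450, 95% interval -0.19 to 0.06). Both signs turned positive when the libraries were scaled on inner retina markers (0.19 for Hspa5 and 0.23 for Hsp90b1, where the median of all genes was 0.30).

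Dnajb9, a cochaperone of BiP induced through XBP1, was at 45.6, 42.1 and 41.7 CPM in rd10 GSK, against 45.8, 49.0 and 48.3 CPM in rd10 saline. Every GSK retina was lower, but the difference of -0.15 ± 0.06 was not called (edgeR adjusted p = 0.0679) and was 0.15 under inner retina scaling. Herpud1, a membrane protein of ER-associated degradation, was at 84.7, 79.1 and 85.9 CPM in rd10 GSK, against 90.6, 98.95 and 85.3 CPM in rd10 saline (-0.14 ± 0.07, adjusted p = 0.129, and 0.15 under inner retina scaling). Xbp1, whose messenger is spliced by IRE1, was at 109.7, 90.7 and 92.4 CPM in rd10 GSK, against 86.5, 81.9 and 81.5 CPM in rd10 saline. All 3 GSK retinas were higher, and the difference of 0.23 ± 0.09 missed the threshold (adjusted p = 0.0754), though it passed under inner retina scaling (0.53, adjusted p = 0.00290).

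**Figure D2:**
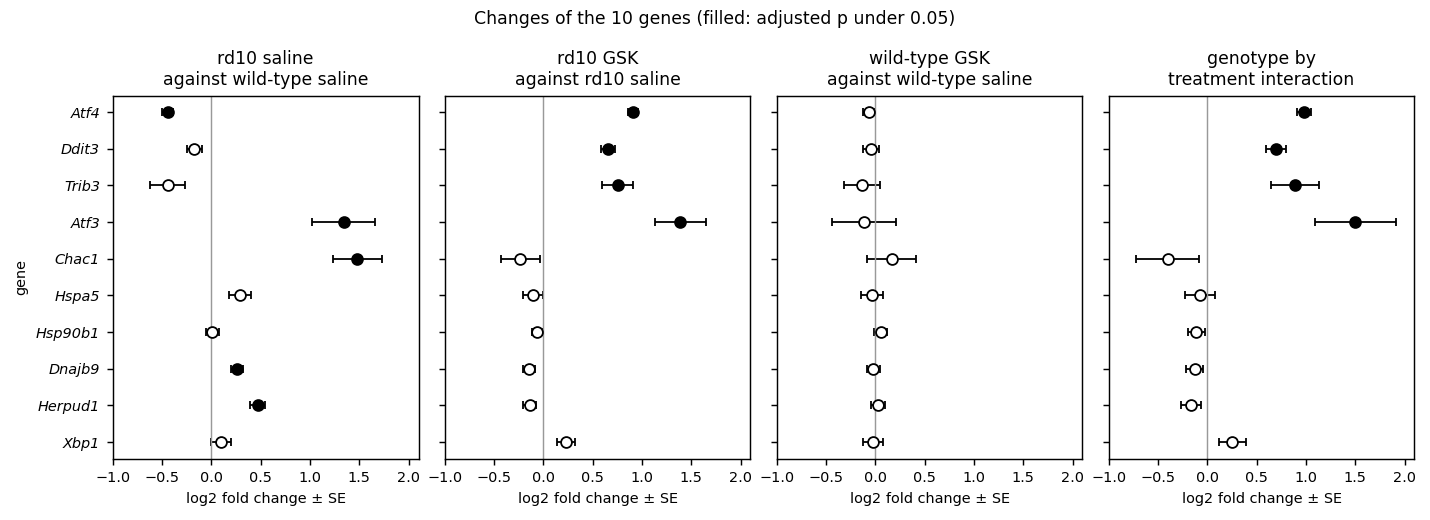
Log2 fold change ± SE (horizontal axis) of each gene (vertical axis) in 4 comparisons, with filled points at adjusted p under 0.05. The points of Atf4 lie at 0.91 for rd10 GSK against rd10 saline, -0.44 for rd10 saline against wild-type saline and -0.07 for wild-type GSK against wild-type saline, where no gene is filled.

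In wild-type retinas GSK moved none of the 10 genes. The count was 0 of 10 by edgeR, by DESeq2 and by limma-voom, and 0 also at an unadjusted p under 0.05, beside 0.532% of all genes called (0.444% higher and 0.0877% lower). Changes ran from -0.14 ± 0.18 for Trib3 to 0.17 ± 0.25 for Chac1, with a median of -0.03. Atf4 was at 240, 230 and 242 CPM in wild-type GSK, against 254.5 and 243 CPM in wild-type saline (-0.07 ± 0.05, edgeR adjusted p = 0.845, 95% interval -0.19 to 0.05). Atf3 was at 3.68, 4.06 and 3.48 CPM in wild-type GSK, against 3.88 and 4.22 CPM in wild-type saline. Ddit3 was at 28.6, 29.8 and 31.4 CPM in wild-type GSK, against 30.9 and 30.7 CPM in wild-type saline. The upper 95% bounds of the change in wild type were 0.05 for Atf4, 0.13 for Ddit3, 0.25 for Trib3 and 0.62 for Atf3, each below the change estimated for that gene in rd10. The interval was widest for Atf3 (-0.84 to 0.62).

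The response to GSK differed between the genotypes for the same 4 genes, by the interaction term that tests the difference itself. The drug effect in rd10 exceeded that in wild type by 0.98 ± 0.07 for Atf4 (edgeR adjusted p = 3.20e-05), 0.70 ± 0.11 for Ddit3 (adjusted p = 0.00191), 0.89 ± 0.24 for Trib3 (adjusted p = 0.0327) and 1.502 ± 0.41 for Atf3 (adjusted p = 0.0424). That is 4 of 10 members, beside 12.5% of all genes called (7.49% higher and 4.98% lower), with a members' median of 0.09 against 0.00 over all genes. Of all calls 60.1% were higher, and 95% under inner retina scaling, where 4 members were again called. The calls of Atf4 and Ddit3 held under all 19 alternatives run for this comparison. The call of Trib3 was lost in 7 of them and that of Atf3 in 12. Both were lost without replicate 1 or replicate 2 of wild-type saline, which left 1 animal in that group. The Atf3 call was also lost with limma-voom, with no filter on low counts and with high or low Xist as a covariate. The highest adjusted p over those alternatives, 0.163 for Trib3 and 0.222 for Atf3, came without both lens-bearing libraries. There, Atf4 and Ddit3 alone of the 10 passed.

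**Figure D3:**
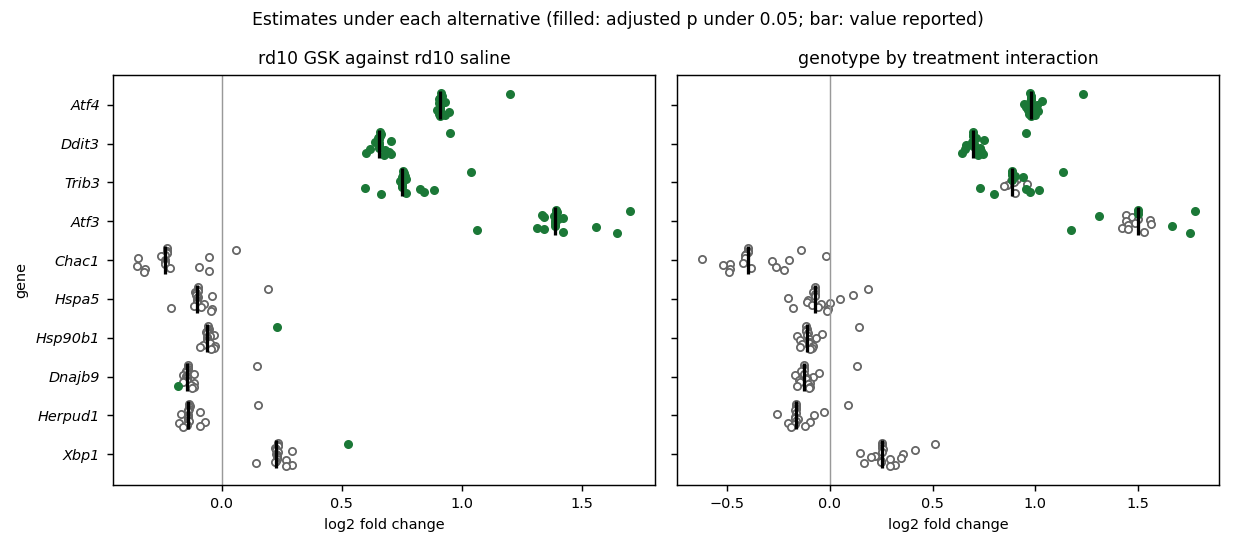
Log2 fold changes (horizontal axis) of the 10 genes (vertical axis) for rd10 GSK against rd10 saline and for the interaction, with 1 point per alternative processing, filled at adjusted p under 0.05, and a black bar at the value reported. All points of Atf4 and Ddit3 are filled in both panels, while open points appear for Trib3 and Atf3 in the interaction panel. The isolated points to the right for most genes are those of inner retina scaling.

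Without the drug, the rd10 retina differed from wild type in both directions within this set. Chac1, Atf3, Herpud1 and Dnajb9 rose in rd10 saline and Atf4 fell, so 5 of 10 members were called, beside 40.5% of all genes (21.5% higher and 19% lower). The median over members was 0.18, against 0.02 over all genes tested. Only 2 animals stand for wild-type saline, and 62.2% of all genes had no overlap between these groups, as had 8 of the 10 members.

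Chac1 was at 5.02, 7.25 and 6.25 CPM in rd10 saline, against 2.54 and 1.89 CPM in wild-type saline. Every rd10 retina was above both wild-type retinas, and the rise was 1.48 ± 0.24, or 2.79-fold (edgeR adjusted p = 0.000621). Atf3 was at 12.4, 8.95 and 9.46 CPM in rd10 saline, against 3.88 and 4.22 CPM in wild-type saline (1.34 ± 0.32, adjusted p = 0.00783). Leaving out wild-type saline replicate 1 ended that call (adjusted p = 0.0632), as did leaving out the lens-bearing libraries (adjusted p = 0.0746). The gliosis markers, all 9 called higher, summed to 2326 to 2504 CPM in rd10 saline against 331 to 336 CPM in wild-type saline, and the 13 microglia markers, all called higher, to 617.5 to 773 CPM against 109 to 112 CPM. Their part in these rises was not tested.

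Herpud1 was at 90.6, 98.95 and 85.3 CPM in rd10 saline, against 70.4 and 62.1 CPM in wild-type saline. It rose by 0.47 ± 0.07 (edgeR adjusted p = 0.000503). Dnajb9 was at 45.8, 49.0 and 48.3 CPM in rd10 saline, against 41.0 and 38.7 CPM in wild-type saline, and rose by 0.26 ± 0.06 (adjusted p = 0.00685). The Dnajb9 call did not pass under inner retina scaling or with wild-type saline replicate 2 or both lens-bearing libraries removed (adjusted p up to 0.129). Hspa5 was at 409, 386 and 403 CPM in rd10 saline, against 355.5 and 298 CPM in wild-type saline. It was higher in every rd10 retina but narrowly missed the threshold (0.29 ± 0.11, adjusted p = 0.0566), and it passed in 6 of 20 alternatives, DESeq2 among them. Hsp90b1 (0.01 ± 0.06) and Xbp1 (0.09 ± 0.10) overlapped between the groups and were not called.

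Atf4 went against these genes. It was at 177, 190 and 182 CPM in rd10 saline, against 254.5 and 243 CPM in wild-type saline, with a wide gap between the groups. In log2 Atf4 fell by 0.44 ± 0.05, to 73.6% of the wild-type mean (adjusted p = 8.50e-05, edgeR). Trib3 was at 3.275, 4.71 and 5.03 CPM in rd10 saline and 5.935 and 5.885 CPM in wild-type saline, and Ddit3 at 25.5, 27.9 and 28.5 CPM in rd10 saline and 30.9 and 30.7 CPM in wild-type saline. All rd10 retinas were below both wild-type retinas for these genes too, but neither difference was called (-0.44 ± 0.18, adjusted p = 0.0685, and -0.17 ± 0.08, adjusted p = 0.104).

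Treated rd10 retinas were also set against wild-type retinas. Against wild-type GSK, 6 of 10 members were higher in rd10 GSK (beside 26.2% of all genes called, 15.4% higher and 10.9% lower): Atf3 (2.84 ± 0.28, edgeR adjusted p = 0.000269), Chac1 (1.08 ± 0.21), Atf4 (0.53 ± 0.05, adjusted p = 9.01e-05), Ddit3 (0.52 ± 0.07), Xbp1 (0.35 ± 0.09) and Herpud1 (0.30 ± 0.07). The same 6 were called higher against wild-type saline, where 24.4% of all genes were called (14.1% higher and 10.3% lower). These comparisons share the rd10 GSK libraries and do not check each other. Under inner retina scaling 9 members were higher in each, and 93.9% and 95.3% of all calls were higher, where 58.5% and 57.8% were without it. As a share of the wild-type saline mean, Atf3 stood at 665% in rd10 GSK and 254% in rd10 saline. Atf4 stood at 138% in rd10 GSK and 73.6% in rd10 saline, Ddit3 at 140% and 88.7%, and Trib3 at 124% and 73.4%. Chac1 stood at 237% in rd10 GSK and 279% in rd10 saline, Herpud1 at 126% and 138%, and Hspa5 at 114% and 122%. Against wild-type saline the Xbp1 call (adjusted p = 0.0409) was lost in 11 of 20 alternatives, the Chac1 call without wild-type saline replicate 2 (adjusted p = 0.0615), and the Herpud1 call without that library or without both lens-bearing ones.

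The order of the groups took 2 main forms. For Atf4 it was rd10 GSK, wild-type saline, wild-type GSK and rd10 saline from high to low, in which the wild-type groups did not differ beyond the test's threshold. Ddit3 and Trib3 had the same order, but there rd10 saline was also not called below wild-type saline, and for Trib3 rd10 GSK was not called above either wild-type group (adjusted p = 0.0574 and 0.229). Chac1, Herpud1, Dnajb9 and Hspa5 ran from rd10 saline through rd10 GSK to the wild-type groups, with no called difference between the rd10 groups. Dnajb9 in rd10 GSK was not called above either wild-type group (adjusted p = 0.1 against wild-type GSK and 0.21 against wild-type saline), and Hspa5 was called in none of the 6 comparisons. Atf3 ran from rd10 GSK through rd10 saline to both wild-type groups, with the rd10 GSK over rd10 saline and rd10 saline over wild-type saline steps called. Xbp1 was highest in rd10 GSK, with no called step between neighbouring groups in its order, and Hsp90b1, like Hspa5, had no called difference in the 6 comparisons. As background on the pattern, the genes outside the set whose standardised log2 profile over the 11 libraries lay closest to Atf3 were Lrrc2, Junb and Fndc4, at root mean square differences of 0.0966, 0.104 and 0.133. Closest to Ddit3 were Cnnm4, Map3k14 and Rassf1 (0.255 to 0.276), closest to Trib3 Sugp1, Ccdc9 and Card19 (0.374 to 0.396), closest to Chac1 Txnrd2, Dnlz and Ephb3 (0.266 to 0.279) and closest to Hspa5 Snap29, Tbc1d25 and Sptlc2 (0.249 to 0.352). Among the members, Chac1 lay closest to Herpud1 (0.288) and Ddit3 to Atf4 (0.324).

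The wider pathway was read from lists of other genes. Of 34 tested genes of the PERK arm and the integrated stress response, 11 rose and 4 fell in rd10 GSK against rd10 saline, with a median of 0.17. That is 44.1% of the list called, beside 32.9% of all genes. Without the lens-bearing libraries the called genes of the list were still mostly rises. Under inner retina scaling 21 rose and none fell, but there 94.4% of all calls were higher and the median of all genes was 0.30. Atf5, another translationally controlled ATF factor, had the largest called rise: it averaged 73.2 ± 16.1 CPM in rd10 GSK and 41.1 ± 3.93 CPM in rd10 saline (0.83 ± 0.14, edgeR adjusted p = 0.00148). Cth, an enzyme of cysteine synthesis, fell by 0.55 ± 0.14. The response to GSK was larger in rd10 than in wild type for 5 genes of the list and smaller for 2. That is 20.6% of the list, beside 12.5% of all genes called (7.49% higher and 4.98% lower). Without the lens-bearing libraries fewer genes were called, in the list and over all genes. Of the 2, Cth stood at -0.71 ± 0.21. The 5 were Atf5 (0.89 ± 0.21), the mTOR inhibitor gene Ddit4 (0.80 ± 0.17), Ppp1r15a, whose product returns eIF2 to its unphosphorylated state (0.68 ± 0.13), and the tRNA synthetase genes Cars (0.39 ± 0.08) and Aars (0.38 ± 0.09), of which the last 3 were named after their values were seen.

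Genes of ER folding and of ER-associated degradation had no common direction with GSK in rd10. Of 32 tested genes of the ATF6, IRE1 and folding list 4 rose and 4 fell (median 0.02), and of 18 degradation genes 2 rose and 2 fell (median 0.09). That is 25% and 22.2% of the lists called, beside 32.9% of all genes (17.6% higher and 15.2% lower). Without the lens-bearing libraries fewer genes were called, in each of these lists and over all genes. Under inner retina scaling 19 and 15 of them rose and 1 and 0 fell, while the median of all genes was 0.30. Cdnf, a neurotrophic factor held in the ER, was higher at 5.08 ± 1.53 CPM in rd10 GSK and 2.82 ± 0.536 CPM in rd10 saline (0.84 ± 0.22, edgeR adjusted p = 0.0126). Fkbp14, an ER prolyl isomerase, fell to 15.5 ± 0.507 CPM in rd10 GSK, against 24.65 ± 0.690 CPM in rd10 saline, and its level in wild-type saline was 16.2 ± 0.498 CPM. Creb3l2, an ER-tethered transcription factor, fell by 0.58 ± 0.09. Casp12, the ER-associated caspase of rodents, fell to 1.05 ± 0.149 CPM in rd10 GSK, against 2.81 ± 0.169 CPM in rd10 saline (-1.41 ± 0.19, adjusted p = 0.000284), and was the only called gene of 6 on the ER stress death list. The 13 microglia markers summed to 185 to 397 CPM in rd10 GSK and 617.5 to 773 CPM in rd10 saline; their part in the fall of Casp12 was not tested. The inducible cytosolic chaperone genes Hspa1b (1.19 ± 0.16) and Hspa1a (0.96 ± 0.11) rose, and of 14 cytosolic heat shock genes 5 rose and 3 fell. That is 57.1% of the heat shock list called, beside the same 32.9% of all genes. Hspa1a and Hspa1b are near-identical copies whose reads may be divided between them.

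In rd10 saline against wild-type saline, 15 of the 34 PERK and integrated stress response genes rose and 2 fell (median 0.28), so 50% of the list was called, beside 40.5% of all genes. The largest called rises were in the interferon-inducible eIF2 kinase gene Eif2ak2, at 46.7 ± 5.33 CPM in rd10 saline and 4.68 ± 0.219 CPM in wild-type saline (3.32 ± 0.57, adjusted p = 0.00252 by edgeR), and in Nupr1, a stress-induced chromatin protein gene, at 48.2 ± 5.09 CPM against 4.97 ± 1.48 CPM (3.27 ± 0.55). Cebpb, a transcription factor that partners ATF4 and CHOP, rose by 2.57 ± 0.33 and Casp12 by 2.61 ± 0.25. Of the folding list 12 rose and 7 fell (median 0.06), and of the degradation list 3 rose and 6 fell (median -0.13). Without the lens-bearing libraries, which left 1 wild-type saline animal, fewer genes were called in each of these lists and over all genes. The ER stress death list had 4 rises and 1 fall among 6 genes, and the heat shock list 4 rises and 4 falls among 14, with Hspa1a falling by 1.52 ± 0.12 and Hspa1b by 1.51 ± 0.17 in log2. The death and heat shock lists also had fewer called genes without the lens-bearing libraries. Cdnf (-1.16 ± 0.24) and the lipoprotein receptor gene Vldlr (-0.98 ± 0.14), an ATF4 target in other cells, also fell.

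In wild-type retinas none of the 103 genes on these 5 lists was called with GSK by edgeR or limma-voom. DESeq2 called 1 of them, and 5 had an unadjusted edgeR p under 0.05. Against wild-type GSK, the rd10 GSK retinas had 19 of 34 PERK and integrated stress response genes higher and 1 lower (median 0.38), or 58.8% called beside 26.2% of all genes, led by Nupr1 (4.04 ± 0.48), the cystine transporter gene Slc7a11 (2.20 ± 0.44), Cebpb (2.13 ± 0.26) and Eif2ak2 (2.11 ± 0.47). In the folding list 5 were higher and 1 lower, and in the degradation list 1 was higher and 4 lower. Against wild-type saline the counts were 19 higher and 1 lower for the PERK list, 5 and 2 for the folding list, and 1 and 5 for the degradation list. There, 24.4% of all genes were called (14.1% higher and 10.3% lower). Under inner retina scaling the degradation list had 10 higher and 0 lower against wild-type GSK, and 11 and 0 against wild-type saline. The folding list then had 21 higher and 0 lower against wild-type GSK, and 24 and 0 against wild-type saline. That scaling shifted the whole table: 93.9% of all calls were higher against wild-type GSK and 95.3% against wild-type saline. The medians of all genes were then 0.23 and 0.28. Without the lens-bearing libraries the comparison was left with 1 wild-type saline animal. Fewer genes were then called against wild-type saline, in each of these lists and over all genes.

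**Figure D4:**
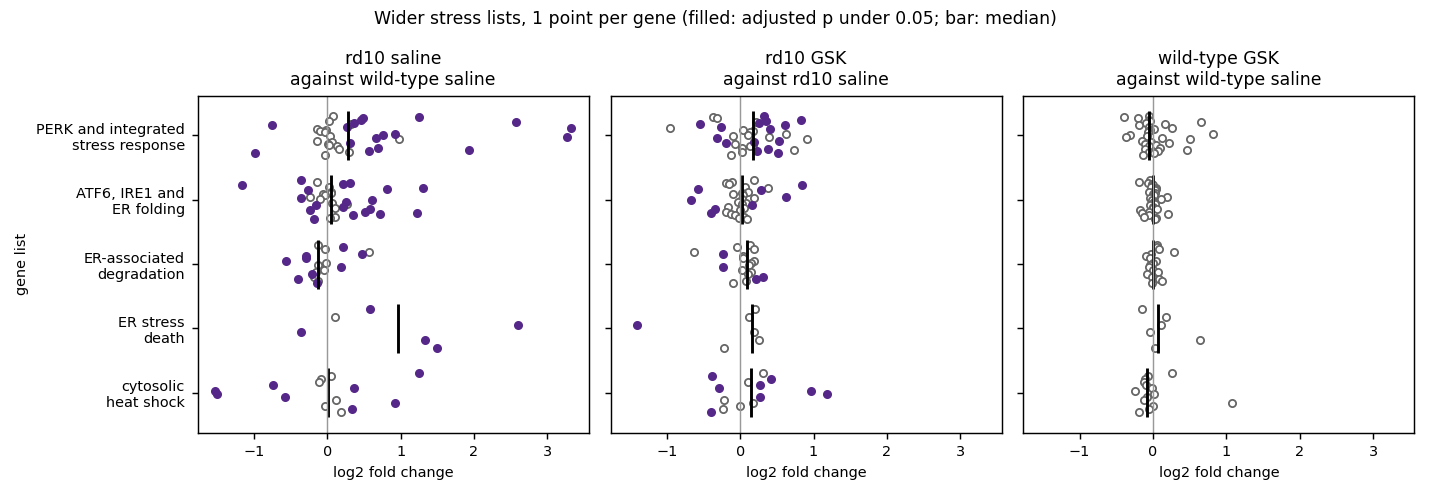
Log2 fold changes (horizontal axis) of all tested genes of 5 stress lists (rows), with 1 point per gene, filled at adjusted p under 0.05, and a bar at the list median, in 3 comparisons. The list medians for rd10 GSK against rd10 saline run from 0.02 for the folding list to 0.17 for the PERK list, and no point is filled for wild-type GSK against wild-type saline.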

How the data were processed

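The authors deposited raw read counts per Ensembl gene for 11 libraries, all used. Per the submitters' processing notes, the tools were bcl2fastq, HISAT2 2.1.0 (an aligner), HTSeq (a read counter) and edgeR, and the builds NCBIM37 and mm9. For HTSeq, neither version nor strand setting nor annotation is given in the sources used here. Per the labels, polyA RNA went into stranded libraries. Names came from GENCODE M21 (32919 of 37991 identifiers matched), exon lengths from the same release, and promoter sequences from RefSeq on GRCm38.p6, where all 10 members matched.

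Counts were filtered (filterByExpr, minimum count 10, minimum total 15), scaled by TMM and fitted with 1 coefficient per group in edgeR 4.0.16 (R 4.3.3), with robust quasi-likelihood F-tests adjusted by Benjamini-Hochberg. The common coefficient of biological variation was 0.129. Intervals are 95% from the test's SE and degrees of freedom. The fit was run on simulated counts drawn with its own dispersion estimates. That run cannot show whether those estimates hold for the real libraries. Alternatives were DESeq2 1.42.0, limma-voom (3.58.1), DESeq2 size factors, scaling on bipolar, amacrine and ganglion cell markers (inner retina scaling), no filter, only the groups compared, a replicate block, and leaving out libraries. An Xist covariate was added after the data were seen. Members and lists were chosen with earlier results of these data known. Genes outside the set were named by rule: up to 4 rises and 4 falls per comparison, and the 3 nearest profiles with a mean of at least 5 CPM. Counting error is not separated from animal variation. Groups of 3 animals, and of only 2 for wild-type saline, limit the precision.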

Additional observations from a re-analysis of the deposited data

Results flagged for a closer look

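The effect of GSK differed between rd10 and wild-type retinas for 4 genes, by the interaction term in edgeR. The difference was 0.98 for Atf4, 0.70 for Ddit3, 0.89 for Trib3 and 1.502 for Atf3 on the log2 scale, rd10 minus wild type, and 12.5% of all genes were called for this term. The calls of Trib3 and Atf3 were lost with either wild-type saline library left out, which left 1 animal in that group. Fewer genes were then called over the whole table too.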

How the results depend on the processing

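Of 25 called member values 17 kept their call in every alternative run and 8 lost it in at least 1, and none of the 25 changed sign. Of 35 uncalled values, 11 were called in at least 1 alternative. With the Xist covariate the Atf3 call for the interaction and the Xbp1 call in rd10 GSK against wild-type saline were lost. Without the lens-bearing libraries fewer members were called in rd10 saline and in rd10 GSK, each against wild-type saline, and for the interaction. The counts reported were 5, 6 and 4. Fewer genes were called over the whole table too, and wild-type saline was left with 1 animal. With each library left out in turn, the count ran from 4 to 7 for rd10 saline against wild-type saline, 4 to 5 for rd10 GSK against rd10 saline, 2 to 4 for the interaction, 5 to 7 for rd10 GSK against wild-type GSK and 3 to 6 for rd10 GSK against wild-type saline. With GSK in wild type it was 0 throughout. The count of 3 came without wild-type saline replicate 2; the interaction fell to 2 without any 1 of the 5 wild-type libraries or without rd10 GSK replicate 2. Leaving out either wild-type saline library left 1 animal in that group. Calls over all genes then fell too, for the interaction and for rd10 GSK against wild-type saline. For the interaction, calls over all genes also fell with the other libraries named here left out. They were 1280, 1443 and 1402 without wild-type GSK replicate 1, 2 or 3 and 1446 without rd10 GSK replicate 2, beside 2131 with all libraries. The cause was not tested.

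Only uncalled values changed sign. Under inner retina scaling these were Hsp90b1 in rd10 saline against wild-type saline (-0.0115); Hspa5 (0.19), Hsp90b1 (0.23), Chac1 (0.0619), Dnajb9 (0.15) and Herpud1 (0.15) in rd10 GSK against rd10 saline; Hspa5 (0.0076), Xbp1 (0.0134) and Dnajb9 (0.0175) in wild type; Hspa5 (0.19), Hsp90b1 (0.14), Dnajb9 (0.13) and Herpud1 (0.0885) for the interaction; and Hsp90b1 in rd10 GSK against wild-type GSK (0.13) and wild-type saline (0.22). That scaling moved the median of all genes in rd10 GSK against rd10 saline to 0.30 and the share of calls that were higher to 94.4%, where 53.6% was the value reported. For the interaction that share was 95%, where 60.1% was reported. Of the values that turned, Hsp90b1 in rd10 GSK against rd10 saline was called (adjusted p = 0.0292), and it lay below that median. Without the lens-bearing libraries Hsp90b1 (-0.0487) and Xbp1 (-0.0174) in rd10 saline against wild-type saline, Chac1 (-0.0313) and Herpud1 (-0.0596) with GSK in wild type, and Hspa5 for the interaction (0.11) turned. Herpud1 with GSK in wild type was -0.0017 with the Xist covariate, chosen after the data were seen, and Atf3 0.0272 with the replicate block.

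With single libraries left out, signs turned in rd10 saline against wild-type saline for Hsp90b1 (-0.0385 to 0.0575) and Xbp1 (-0.0072 to 0.20), for the interaction of Hspa5 (-0.21 to 0.0509), and with GSK in wild type for Hspa5 (-0.15 to 0.10), Xbp1 (-0.13 to 0.0808), Dnajb9 (-0.0633 to 0.0233), Herpud1 (-0.0617 to 0.12) and Chac1 (-0.0338 to 0.39). Whether replicate numbers pair the samples could not be decided from correlated deviations from the group means. Of 15 same-numbered pairs 6 had correlations over 0.1 (range -0.19 to 0.39), and of 30 other pairs 4 (range -0.39 to 0.204). The deviations of the 2 wild-type saline libraries mirror each other, so the pairs are not independent. With the replicate block 6 members were called in rd10 saline against wild-type saline, and the other counts were as reported. Depth limits Chac1 and Trib3 most, and Atf3 in the wild-type libraries.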
